A study of Mus musculus with 8 samples.

Results

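The genes described here encode the contents of cytotoxic granules and the machinery that brings such granules to the plasma membrane. They comprise the 10 genes Gzma, Gzmb, Gzmk, Prf1, Stx11, Stxbp2, Unc13d, Rab27a, Sytl1 and Sytl2, which were found by their gene name among the 29924 gene names of the array. All 10 were measured, and all 10 were among the 15764 genes tested because they were well above background in both arrays of at least 1 cell type. Where a gene had several probes, the probe with the highest mean log2 level was used and the others served as a check.

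RNA was profiled from follicular and non-follicular CD4 T cells of peripheral lymph nodes (pLN) of mice of the strain B6.Cg-Foxp3<tm1Mal>, in which GFP marks cells that express Foxp3. From live B220-CD4+ cells, a gate meant to leave out B cells and CD8 T cells, naïve CD4 T cells were sorted as GFP-PD1loGL7-, TFH (T follicular helper) cells as GFP-PD1hiGL7+, Treg (regulatory T) cells as GFP+PD1loGL7- and TFR (T follicular regulatory) cells as GFP+PD1hiGL7+/-. All mice had received the antigen KLH with alum s.c., so no unimmunized group was analysed here. Each cell type was hybridized to 1 one-color array at d12 and 1 array at d25 p.i., giving 8 arrays in all. Animals were 8 to 14 weeks old and of both sexes, and each array held RNA of cells pooled from 8 to 15 mice per the labels (the study's statistics section gives fewer), with 25 ng of total RNA as input. As a cell type had only 1 array per day, d12 and d25 served as its 2 replicates, and the error terms below measure how far a difference between cell types varied from one day to the other. In sorted populations, fewer cells that express a gene and less RNA per cell cannot be told apart.

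Cytotoxic lymphocytes kill by releasing lysosome-related granules into the contact zone with a target cell. Perforin, the product of Prf1, forms pores through which the granzymes, a family of serine proteases, enter the target. For release, granules are docked by the small GTPase Rab27a and its synaptotagmin-like effectors (Sytl1, Sytl2), primed by Munc13-4 (Unc13d), and fused with the membrane by a SNARE complex that includes syntaxin 11 (Stx11) and its chaperone Munc18-2 (Stxbp2). Inherited loss of PRF1, UNC13D, STX11 or STXBP2 causes familial hemophagocytic lymphohistiocytosis in humans, and loss of RAB27A causes Griscelli syndrome. Among CD4 T cells, granzyme B and perforin have been studied as effector molecules of activated Treg cells.

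Levels are relative units (RU): quantile-normalized spot signals scaled to a 75th percentile of 1500 on every array, with a floor of 20 RU. RU values can be compared between arrays for the same probe but not between probes. Of the 39429 probes, 46.3 to 50.4% per array were well above background. The labels held against defining markers: Foxp3 read 37266 to 49262 RU on the 4 Treg and TFR arrays but 66 to 358 RU in the Foxp3- cells, and Bcl6, the lineage factor of follicular T cells, read 23711 to 112804 RU in follicular against 5277 to 6877 RU in the other cells. A difference was called when its Benjamini-Hochberg adjusted p, in a limma fit over all tested genes with terms for cell type and day, was below 0.05. All 4 d12 arrays lay on 1 slide, whereas at d25 naïve and TFH cells shared a slide and Treg and TFR cells shared another.

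**Figure D1:**
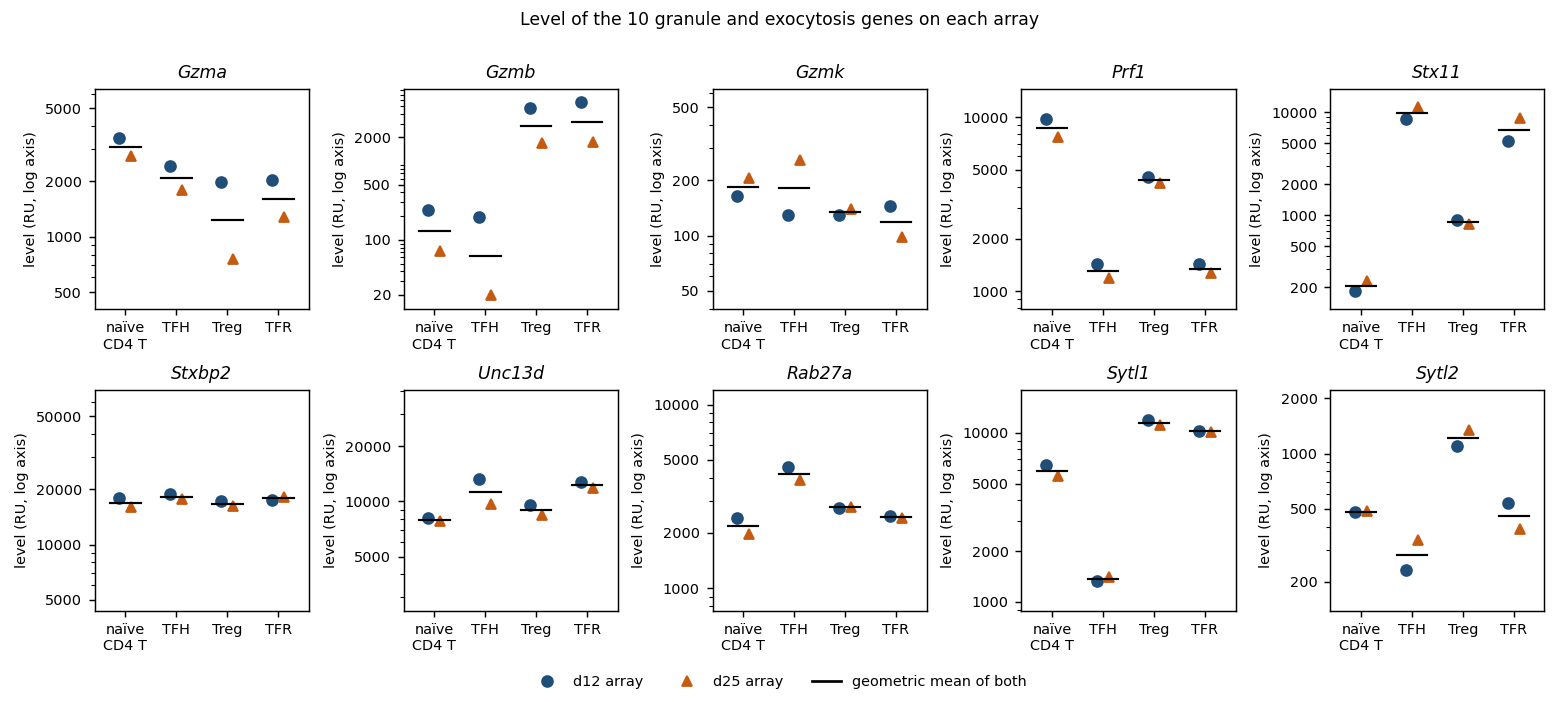
Level (RU, log axis) of each of the 10 genes on the 8 arrays, with circles for d12, triangles for d25 and a bar at the geometric mean of both. Prf1 was highest in naïve CD4 T cells (7766 and 9779 RU), Stx11 was highest in TFH cells (8546 and 11285 RU), Gzmb was high in Treg and TFR cells only (1685 to 5557 RU), and Sytl1 was lowest in TFH cells (1334 and 1408 RU).

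Perforin mRNA was the granule component with the clearest follicular pattern. Here and below, pairs of values are d12 and then d25. The Prf1 probe read 9779 RU at d12 and 7766 RU at d25 in naïve CD4 T cells, whereas Treg cells gave 4524 and 4193 RU. In TFH cells it read 1441 and 1185 RU, and in TFR cells 1429 and 1271 RU. The values of naïve, Treg and follicular cells did not overlap, whereas those of TFH and TFR cells did. TFH cells thus held 6.67-fold less Prf1 mRNA than naïve CD4 T cells (log2 difference -2.74 ± 0.10, SE, adjusted p = 0.00017), and TFR cells held 3.23-fold less than Treg cells (-1.69 ± 0.10, adjusted p = 0.00081). Between the follicular cell types it differed by 0.04 ± 0.10 (adjusted p = 0.776), with a 95% confidence interval of -0.20 to 0.29. Treg cells also held less Prf1 mRNA than naïve CD4 T cells (interval of the log2 difference -1.25 to -0.75, adjusted p = 0.0064). That last call was lost without the d12 Treg array (adjusted p = 0.0637) or without the d12 naïve array (0.0569).

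Markers of other cytotoxic lymphocytes moved with Prf1 in part. The CD8 T cell markers Cd8a and Cd8b1 were both detected on every array, and their summed level at d12 and d25 was 5118 and 4957 RU in naïve, 4565 and 4208 RU in Treg, 2114 and 3174 RU in TFH and 2235 and 2110 RU in TFR cells. Cd8b1 fell by 1.08 ± 0.16 on the log2 scale from naïve to TFH cells (adjusted p = 0.0061) and by 0.96 ± 0.16 from Treg to TFR cells (adjusted p = 0.0111). The summed level of 7 NK cell markers was 7488 and 7499 RU in naïve, 2606 and 5871 RU in TFH, 1641 and 1426 RU in Treg and 1460 and 1364 RU in TFR cells. Such sums weight bright probes more and were set only against the same sum on other arrays. Members of the NK list did not run alike. Klrd1, a lectin-like receptor chain shared by NK and CD8 T cells, read 5460 and 5837 RU in naïve cells and 347 to 1097 RU elsewhere, whereas Klrb1c (NK1.1) read 1484 and 3077 RU in TFH and 820 and 752 RU in TFR cells against 35 to 162 RU in the non-follicular cells. Ncr1, which defines NK cells, stayed at 20 to 40 RU with no array well above background, and Klre1 was well above background on 2 arrays. The CD4+ gate given above is meant to leave out CD8 T cells, and their part in the Prf1 result was not tested.

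**Figure D2:**
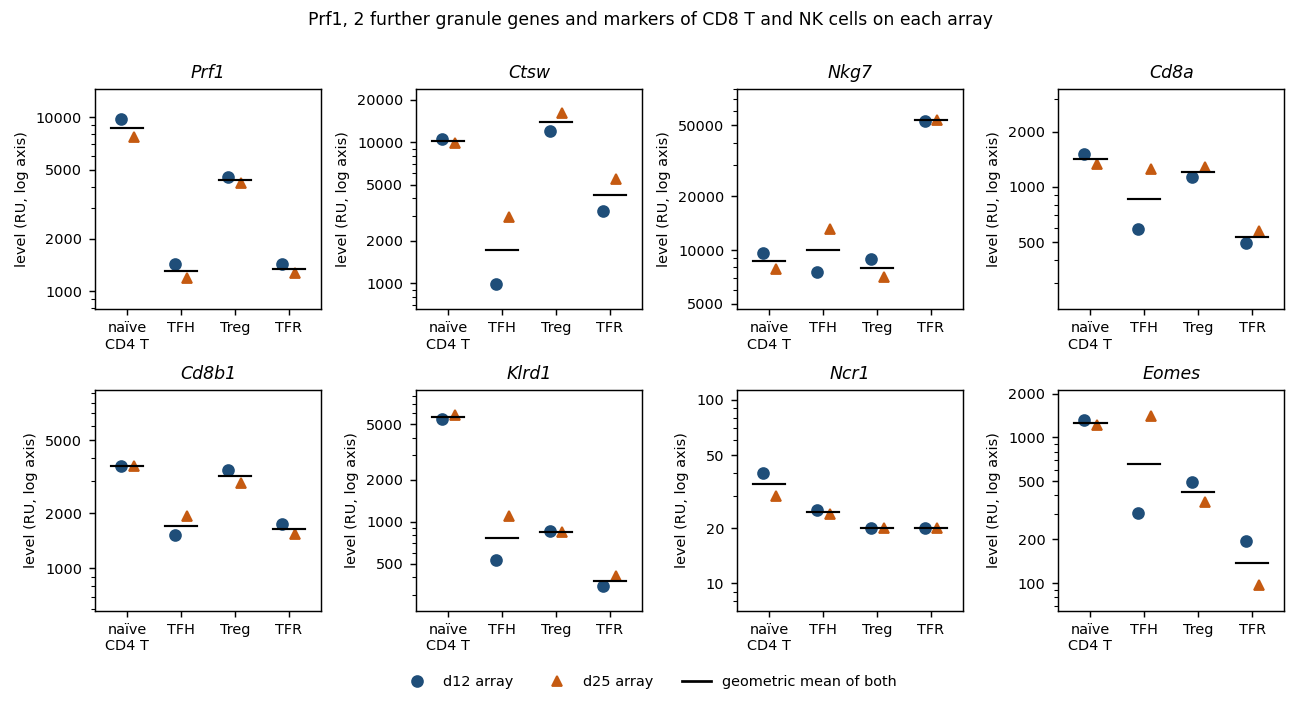
Level (RU, log axis) of Prf1, the granule genes Ctsw and Nkg7, the CD8 T cell markers Cd8a and Cd8b1 and the NK cell markers Klrd1, Ncr1 and Eomes on the 8 arrays, with circles for d12, triangles for d25 and a bar at the geometric mean. Cd8b1 was lower in follicular than in other cells on both days (1523 to 1923 against 2930 to 3617 RU), Nkg7 was highest in TFR cells, and Ncr1 did not exceed 40 RU.

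Granzyme B mRNA separated Foxp3+ from Foxp3- cells. At d12 the Gzmb probe read 4661 RU in Treg and 5557 RU in TFR cells, and at d25 it read 1685 and 1726 RU. In naïve CD4 T cells it read 239 RU at d12 and 72 RU at d25, and in TFH cells 197 and 20 RU, the last value being the floor. The d25 arrays of naïve and TFH cells were not well above background, so both Foxp3- cell types were measured on 1 of their 2 arrays. Gzmb therefore entered the test only through Treg and TFR cells, the cell types in which it was high. At d12, where all 4 cell types were measured, Gzmb was 28.2-fold higher in TFR than in TFH cells and 19.5-fold higher in Treg than in naïve CD4 T cells. At d25 it was at least 56.9-fold and at least 23.4-fold higher, taking for the Foxp3- array the higher of its own value and its lowest detected signal. The fit over both days, which uses the undetected values as they stand, gave 5.62 ± 0.47 for TFR minus TFH (adjusted p = 0.0029) and 4.42 ± 0.47 for Treg minus naïve cells (adjusted p = 0.0089). With normexp background correction these were 3.77 (adjusted p = 0.00013) and 3.35 (adjusted p = 0.00035). TFR and Treg cells did not pass the test (0.14 ± 0.47, adjusted p = 0.836), and the interval of that difference ran from -1.08 to 1.37. On the shared d12 slide alone, the differences were 4.82 for TFR against TFH cells and 4.28 for Treg against naïve cells. The call for Treg against naïve cells was lost with slide as a block (3.95, adjusted p = 0.0501). It was also lost with no term for day (adjusted p = 0.121) and with no filter on dim probes (adjusted p = 0.0778). Without either Treg array or either naïve array the log2 difference was 4.03 to 4.80, and the call was lost as well.

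Gzmb was also the gene with the widest gap between the days. It was lower at d25 in all 4 cell types, by 1.73 on the log2 scale in naïve, 3.30 in TFH, 1.47 in Treg and 1.69 in TFR cells. The naïve and TFH values of d25 were not well above background. The mean change of -2.05 ± 0.33 did not pass the test (adjusted p = 0.0701). Gzma (-0.70 ± 0.20, adjusted p = 0.114), Prf1 (-0.22 ± 0.07, adjusted p = 0.124) and Unc13d (-0.20 ± 0.09, adjusted p = 0.215) likewise read lower at d25 in all 4 cell types. None of the 10 genes was called between d25 and d12 by limma, against 0.0698% of all tested genes, and 3 of the 10 had an unadjusted p below 0.05, against 28.8% of all tested genes. Gzmb was called in 2 alternatives, as given in the closing section. Day and slide cannot be told apart in this comparison.

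Gzma and Gzmk, the other granzymes of this set, showed no called difference at their brightest probes with all arrays. Gzma, a trypsin-like granzyme, read 3431 and 2750 RU in naïve, 2417 and 1809 RU in TFH, 1988 and 757 RU in Treg and 2038 and 1277 RU in TFR cells. Naïve values lay above all others, while the Treg and TFR ranges overlapped. The Gzma difference of -1.32 ± 0.28 between Treg and naïve CD4 T cells just missed the threshold (adjusted p = 0.0530) and passed it without the d12 Treg array (-1.78, adjusted p = 0.0326). Without the same array TFR cells exceeded Treg cells by 0.86 (adjusted p = 0.0473), against 0.39 ± 0.28 (adjusted p = 0.310) with all arrays. TFH minus naïve CD4 T cells was -0.55 ± 0.28 for Gzma (adjusted p = 0.164), with an adjusted p of 0.0385 when either Treg array was left out. Gzmk, which marks memory-like cytotoxic T cells, stayed between 98 and 257 RU on all arrays, with the Treg and TFR values below the naïve ones and the other ranges overlapping. Its differences ranged from -0.62 to -0.01 on the log2 scale, with standard errors of 0.36.

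The promoter windows of these granule genes are shown because RUNX factors regulate cytotoxic genes and Runx3 itself was measured. Runx3 read 1248 and 1169 RU in naïve, 240 and 105 RU in TFH, 885 and 866 RU in Treg and 1360 and 1017 RU in TFR cells, that is, it fell by 2.93 ± 0.30 on the log2 scale from naïve to TFH cells (adjusted p = 0.0020) and was 2.89 ± 0.30 higher in TFR than in TFH cells (adjusted p = 0.0051). The sequences are the 250 bases before the RefSeq gene start (GRCm38.p6), given 5′ to 3′ on the gene's strand. Capitals mark the RUNX core TGTGGT or its reverse complement ACCACA.
Prf1 promoter, chr10:61297586-61297835, plus strand: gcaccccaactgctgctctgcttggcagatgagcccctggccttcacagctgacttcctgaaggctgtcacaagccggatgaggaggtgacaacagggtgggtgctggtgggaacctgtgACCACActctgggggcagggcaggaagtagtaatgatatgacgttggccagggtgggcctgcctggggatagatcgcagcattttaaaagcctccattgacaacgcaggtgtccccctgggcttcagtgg
Gzmb promoter, chr14:56262335-56262584, minus strand: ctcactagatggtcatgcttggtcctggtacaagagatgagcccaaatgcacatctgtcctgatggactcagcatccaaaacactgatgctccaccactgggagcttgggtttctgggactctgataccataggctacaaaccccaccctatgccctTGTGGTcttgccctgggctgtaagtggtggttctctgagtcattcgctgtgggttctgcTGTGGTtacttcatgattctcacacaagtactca
Stx11 promoter, chr10:12964260-12964509, minus strand: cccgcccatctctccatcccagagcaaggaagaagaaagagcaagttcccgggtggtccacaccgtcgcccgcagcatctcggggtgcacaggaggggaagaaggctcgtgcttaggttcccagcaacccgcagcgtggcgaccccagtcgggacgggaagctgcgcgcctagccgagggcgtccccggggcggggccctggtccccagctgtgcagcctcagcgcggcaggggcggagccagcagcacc
The Prf1 window held 1 match, whose first base lay 130 bases before the start, the Gzmb window held 2 at 93 and 34 bases before it, and the Stx11 window held none. Of the 9 windows found for 8 of the genes, 5 held a match, namely those of Gzma, Gzmb, Prf1, Sytl1 and 1 of 2 starts of Rab27a. Across all 32851 promoter windows of this length, 14.0% held at least 1 match. These are matches of letters, not measured binding sites.

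Among the genes for docking and fusion, Stx11 changed most. It read 186 and 229 RU in naïve, 8546 and 11285 RU in TFH, 903 and 825 RU in Treg and 5255 and 8682 RU in TFR cells. No value of 1 cell type overlapped with those of another except between TFH and TFR cells, where the lowest TFH and the highest TFR value crossed. The rise from naïve to TFH cells was 47.5-fold (5.57 ± 0.21, adjusted p = 0.00018) and that from Treg to TFR cells 7.83-fold (2.97 ± 0.21, adjusted p = 0.0013). TFR cells stood 0.54 ± 0.21 below TFH cells, which did not pass the test (adjusted p = 0.135, interval -1.08 to 0.00). Treg cells already held 4.18-fold more Stx11 mRNA than naïve CD4 T cells (2.06 ± 0.21, adjusted p = 0.0076), a call that was lost without the d12 or the d25 naïve array (adjusted p = 0.0614 and 0.0589). Over the 8 arrays Stx11 and Prf1 ran opposite to each other (Pearson r = -0.99), with the 4 cell types as the only groups behind that value.

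Unc13d and Stxbp2, the other genes of this step, differed far less between cell types. Unc13d, the priming factor, read 8099 and 7783 RU in naïve, 13176 and 9649 RU in TFH, 9539 and 8487 RU in Treg and 12794 and 11898 RU in TFR cells. Both follicular cell types lay above their non-follicular counterparts on both days. The differences were 0.51 ± 0.12 for TFH against naïve cells (adjusted p = 0.0263) and 0.46 ± 0.12 for TFR against Treg cells (adjusted p = 0.0412). Both calls were lost with no term for day (adjusted p = 0.0671 and 0.102) and with no filter on dim probes (0.0818 and 0.114). That for TFR against Treg cells was lost with slide as a block (0.0713) and with 75th percentile scaling only (0.0580). Leaving out any array but the d25 TFH array ended the former call (adjusted p = 0.0569 to 0.145), and leaving out any Treg, TFR or naïve array ended the latter (0.0647 to 0.201). Stxbp2, the syntaxin chaperone, ranged from 15997 to 18889 RU over all arrays, a 1.18-fold span, and its log2 differences between cell types were -0.03 to 0.11 with intervals between -0.27 and 0.34.

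Rab27a, the GTPase that tethers granules, was raised in TFH cells. It read 2414 and 1982 RU in naïve, 4564 and 3885 RU in TFH, 2748 and 2760 RU in Treg and 2460 and 2412 RU in TFR cells. Each TFH value lay above every other value. TFH cells exceeded naïve CD4 T cells by 1.93-fold (0.95 ± 0.11, adjusted p = 0.0030) and TFR cells by 1.73-fold (difference of TFR minus TFH -0.79 ± 0.11, adjusted p = 0.0112). The latter call was lost without the d12 or the d25 TFR array (adjusted p = 0.0949 and 0.0649). TFR against Treg cells did not pass the test (-0.18 ± 0.11, adjusted p = 0.260).

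Sytl1 and Sytl2, which encode the effectors Slp1 and Slp2 of Rab27a, were highest in Treg cells. Sytl1 read 6422 and 5591 RU in naïve, 1334 and 1408 RU in TFH, 11913 and 11146 RU in Treg and 10298 and 10123 RU in TFR cells. These 4 ranges did not overlap. The level of Sytl1 in TFH cells was 4.37-fold below that in naïve CD4 T cells (-2.13 ± 0.10, adjusted p = 0.00026), whereas its level in TFR cells was 7.45-fold above the TFH level (2.90 ± 0.10, adjusted p = 0.00052). Treg cells exceeded naïve CD4 T cells by 0.94 ± 0.10 (adjusted p = 0.0087), which was lost without either Treg array (adjusted p = 0.0826 and 0.0746) or the d25 naïve array (0.0614). TFR and Treg cells did not pass the test (-0.17 ± 0.10, adjusted p = 0.225).

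Sytl2 read 481 and 485 RU in naïve, 231 and 339 RU in TFH, 1099 and 1336 RU in Treg and 541 and 388 RU in TFR cells. Treg values lay above all others, and TFR values spanned the naïve ones. Sytl2 was 2.65-fold lower in TFR than in Treg cells (-1.40 ± 0.26, adjusted p = 0.0138), which was lost without the d25 TFR array (-1.02, adjusted p = 0.0569) or either Treg array (adjusted p = 0.0652 and 0.0868). Treg cells exceeded naïve CD4 T cells by 1.33 ± 0.26 (adjusted p = 0.0423), and no array of either could be left out without losing that call (adjusted p = 0.162 to 0.232). The difference between TFH and naïve CD4 T cells was -0.79 ± 0.26 (adjusted p = 0.0584), and it passed without the d25 TFH array (-1.10, adjusted p = 0.0459) or without either TFR array (0.0339).

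**Figure D3:**
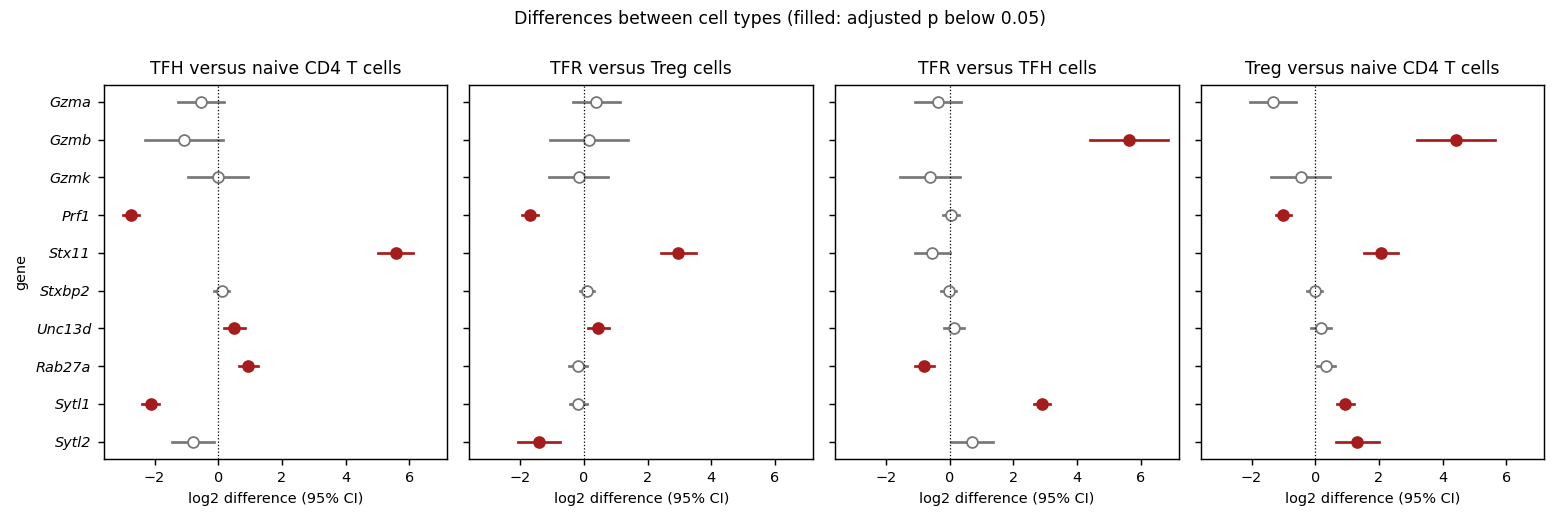
Log2 difference of each gene in the 4 comparisons between cell types, with 95% confidence intervals from the limma fit over all 8 arrays. Filled red points are called and open grey points are not. Stx11 had the largest rise from naïve to TFH cells (5.57) and Gzmb the largest excess of TFR over TFH cells (5.62), fitted with a d25 TFH value that lay at the floor and was not well above background.

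Counted together, 5 of the 10 genes were called in TFH against naïve cells, namely Stx11, Unc13d and Rab27a as higher and Prf1 and Sytl1 as lower in TFH cells. The background was high in this comparison, with 46.5% of all tested genes called, 20.9% higher and 25.6% lower. Between TFR and Treg cells 4 were called, with Stx11 and Unc13d higher and Prf1 and Sytl2 lower, against 39.6% of all genes (18.7% higher, 20.9% lower). Between TFR and TFH cells 3 were called, Gzmb and Sytl1 higher and Rab27a lower in TFR cells, against 22.1% (11.6% higher, 10.5% lower). Between Treg and naïve CD4 T cells 5 were called, Gzmb, Stx11, Sytl1 and Sytl2 higher and Prf1 lower in Treg cells, against 9.88% (5.89% higher, 3.98% lower). At d25 the last pair of comparisons crossed slides. On the shared d12 slide alone, TFR minus TFH cells was 2.95 for Sytl1 and -0.89 for Rab27a, and Treg minus naïve CD4 T cells was -1.11 for Prf1, 2.28 for Stx11, 0.89 for Sytl1 and 1.19 for Sytl2, each of the same sign as the fit. With slide as a block in place of day, Treg against naïve CD4 T cells kept the call of Prf1 alone, and the adjusted p was 0.0501 for Gzmb, 0.0573 for Stx11, 0.0645 for Sytl1 and 0.115 for Sytl2. Over all 15764 tested genes, 523 were called in that setting, against 1557 in the main fit. The shares of 5, 4 and 3 of 10 in the first comparisons were thus near the background. The median log2 difference of the 10 genes was -0.28, -0.04, 0.01 and 0.26 in this order, beside -0.07, -0.08, -0.02 and -0.02 over all tested genes.

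The follicular change itself differed between the lineages for several genes. Subtracting the change between naïve CD4 T and TFH cells from that between Treg and TFR cells gave calls for 4 of 10 genes, against 8.49% of all tested genes. Sytl1 fell in TFH cells by 1.95 ± 0.14 more than in TFR cells (adjusted p = 0.0055), and Prf1 by 1.04 ± 0.14 more (adjusted p = 0.0179). Stx11 rose less in the Foxp3+ lineage (-2.60 ± 0.30, adjusted p = 0.0138). Rab27a rose in TFH cells and was -0.18 in TFR relative to Treg cells, and the difference of these changes was -1.12 ± 0.16 (adjusted p = 0.0219). The Sytl1 call held whichever array was left out. The Prf1 call was lost without any single naïve, Treg or TFR array (adjusted p = 0.0639 to 0.0956). The Rab27a call was lost without any single array except the d25 TFH array (0.0583 to 0.115). The Stx11 call was lost without the d12 TFR array or either naïve array (0.0602 to 0.0654). Gzmb, with 1.21 ± 0.67 (adjusted p = 0.335), passed only without the d12 TFH array, which leaves TFH cells with their undetected d25 value.

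**Figure D4:**
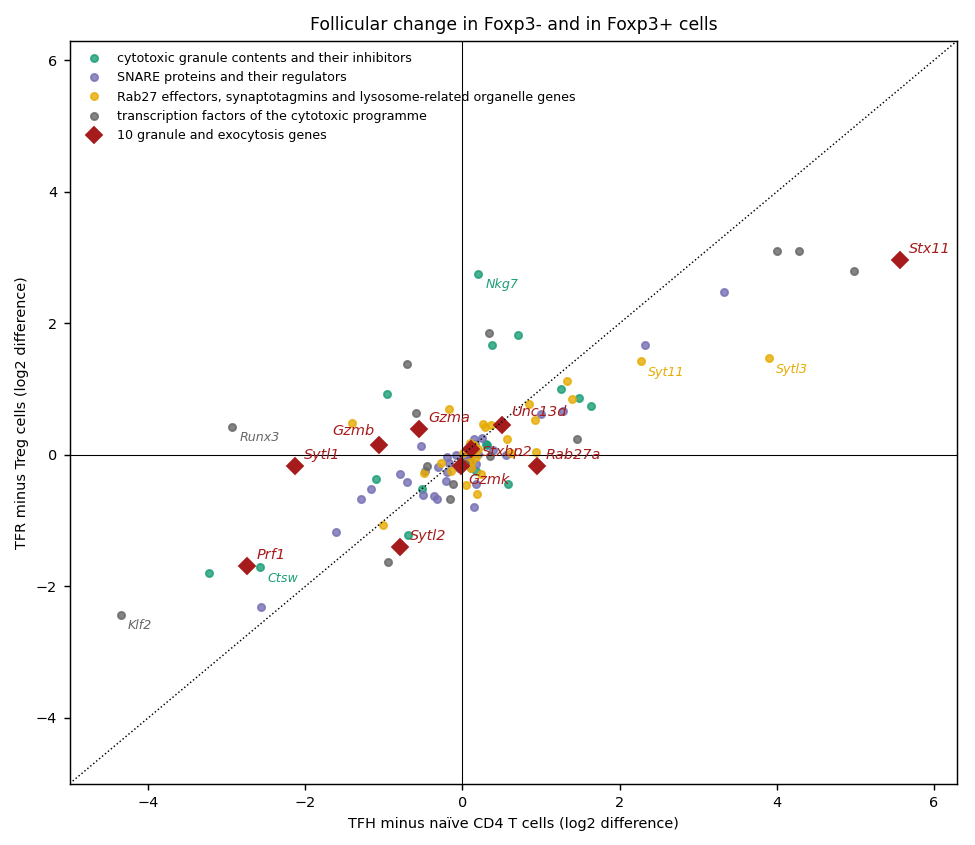
Log2 difference of TFR minus Treg cells (vertical) against that of TFH minus naïve CD4 T cells (horizontal) for the 10 genes (red diamonds) and for the tested genes of 4 lists (17, 36, 30 and 15 genes), with names drawn for the 10 genes and for 6 further genes given in the text. The dotted line marks equal change, and fitted values of genes near the floor of 20 RU are included. Stx11 lies far right of the line (5.57 and 2.97), Prf1 is low on both axes (-2.74 and -1.69), and Sytl1 is low on the horizontal axis only (-2.13 and -0.17).

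Other granule contents and granzyme inhibitors, 23 genes of which 17 were tested, split into both directions. From naïve to TFH cells 5 rose and 3 fell, with a median of 0.20, and from Treg to TFR cells 6 rose and 1 fell, with a median of 0.14. These shares called, 47.1% and 41.2%, were near the 46.5% and 39.6% of all tested genes. Srgn, the proteoglycan serglycin that packs granule proteins, rose by 1.64 ± 0.13 in TFH cells (adjusted p = 0.00094), and Lamp2, a lysosomal membrane protein, by 1.48 ± 0.08 (adjusted p = 0.00035). Ctsw, a cathepsin of cytotoxic lymphocytes, fell in both lineages, by 2.57 ± 0.40 in TFH (adjusted p = 0.0067) and by 1.71 ± 0.40 in TFR cells (adjusted p = 0.0267). Ctsc, the protease that activates granzymes, fell by 1.10 ± 0.13 in TFH cells (adjusted p = 0.0030). Crtam, a receptor of cytotoxic T cells, was lower by 2.33 ± 0.39 in Treg than in naïve CD4 T cells (log2 difference -2.33, adjusted p = 0.0285).

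Nkg7, a granule membrane protein of NK and cytotoxic T cells, stood apart in TFR cells. It read 53168 and 53612 RU there, against 7029 to 13185 RU on the other 6 arrays. TFR cells exceeded Treg cells by 2.75 ± 0.31 (adjusted p = 0.0038) and TFH cells by 2.42 ± 0.31 (adjusted p = 0.0082). The serpins Serpinb6a and Serpinb6b, inhibitors of serine proteases, were also highest in TFR cells, with 13401 and 18140 RU for Serpinb6a against 4153 to 6132 RU elsewhere, and 9630 and 9699 RU for Serpinb6b against 2231 to 6451 RU elsewhere. Serpinb6a exceeded its Treg level by 1.67 ± 0.19 (adjusted p = 0.0041). Of 7 further granzymes, Gzmc and Gzmm were tested, while Gzmd, Gzme, Gzmf, Gzmg and Gzmn did not reach a signal well above background.

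Of 36 tested SNARE proteins and regulators, 5 rose and 8 fell from naïve to TFH cells (median 0.00), and 4 rose and 8 fell from Treg to TFR cells (median -0.13). These were 36.1% and 33.3% of the list, against 46.5% and 39.6% of all tested genes. Vamp8, a vesicle SNARE of secretory lysosomes, rose by 1.00 ± 0.11 (adjusted p = 0.0026) and 0.63 ± 0.11 (adjusted p = 0.0128). Stx17, a syntaxin of autophagosomes, fell by 1.61 ± 0.24 (adjusted p = 0.0060) and 1.17 ± 0.24 (adjusted p = 0.0191). The comparison of Treg with naïve CD4 T cells called none of the 36, against 9.88% of all tested genes.

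Of 30 tested Rab27 effectors, synaptotagmins and genes of lysosome-related organelles, 9 rose and 3 fell in TFH against naïve CD4 T cells (median 0.18), against 46.5% of all tested genes called. Between TFR and Treg cells 7 were higher and 2 lower (median 0.06, background 39.6%), and between TFR and TFH cells 1 was higher and 8 were lower in TFR cells (median -0.11, background 22.1%). Sytl3, a further effector of Rab27, ran opposite to Sytl1: it read 663 and 373 RU in naïve, 8763 and 6302 RU in TFH, 193 and 106 RU in Treg and 593 and 263 RU in TFR cells. It rose by 3.90 ± 0.18 from naïve to TFH cells (adjusted p = 0.00024) and by 1.47 ± 0.18 from Treg to TFR cells (adjusted p = 0.0045). Its level was lower by 4.23 ± 0.18 in TFR than in TFH cells (TFR minus TFH -4.23, adjusted p = 0.00061). Rab27b, Sytl4 and Sytl5 did not rise well above background on any of the 8 arrays. Syt11, a synaptotagmin of vesicle traffic, rose by 2.27 ± 0.11 in TFH (adjusted p = 0.00027) and also rose in TFR against Treg cells (SE 0.11, adjusted p = 0.0016), from 10618 and 9415 RU to 26189 and 27430 RU.

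Of 15 transcription factors of the cytotoxic programme, 6 were higher and 2 lower in TFR than in TFH cells, against 11.6% and 10.5% of all tested genes. In TFH against naïve cells 4 rose and 3 fell, and in TFR against Treg cells 5 rose and 2 fell, 46.7% of the list in each case, against 46.5% and 39.6% of all tested genes. Besides Runx3, Prdm1 (Blimp-1, a repressor of Bcl6) was higher in TFR cells by 2.66 ± 0.22 (adjusted p = 0.0026) and Hopx by 2.49 ± 0.15 (adjusted p = 0.0014). Tbx21, which encodes T-bet, read 2043 and 1746 RU in TFR cells and 440 to 735 RU elsewhere, and exceeded the Treg level by 1.85 ± 0.21 (adjusted p = 0.0042). Eomes, which regulates Prf1 in CD8 T cells, was not called in any comparison and read 303 RU at d12 but 1405 RU at d25 in TFH cells. Klf2, a factor of quiescent T cells, fell by 4.35 ± 0.22 in TFH (adjusted p = 0.00031) and by 2.43 ± 0.22 in TFR cells (adjusted p = 0.0025).

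Genes with the pattern most like that of a member over the 8 arrays were searched by Pearson correlation of log2 levels across all tested genes. Stx11 was closest to Casp1 (r = 0.998), which encodes the inflammatory caspase, and to Nrbp2 (0.997). Prf1 was closest to Rcn3 (0.996), Gpd1l (0.994) and Olfr1535 (0.994), Sytl1 to Mthfd1l (0.998), Mical3 (0.995) and Dennd5a (0.994), and Gzmb to Jmjd7 (0.990), Dok2 (0.983) and Myadm (0.979). With 4 cell types of 2 arrays each, such values describe a shared order of the cell types, and they were the highest among the 15764 genes searched. Some of them rest in part on values at or near the floor. Olfr1535 was not well above background in TFH and TFR cells, Myadm in naïve and TFH cells, and Nrbp2 in naïve cells. Among the 10 genes themselves, Gzmb and Sytl1 correlated at 0.80 and Stx11 and Unc13d at 0.84.

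Of the 10 genes, 4 had a second probe, and the pairs did not all read alike. The last 30 bases of these 60-base probes are shown because the probes of a pair lie apart in the gene, and capitals mark the polyadenylation signal AATAAA, which stands near transcript ends. Coordinates are those of the array's annotation on mm9, and exon or UTR annotation of this build was not used here.
Sytl1 brighter probe, chr4:132809016-132809075: acccatggccggaatcAATAAAgtctgttt
Sytl1 dimmer probe, chr4:132811975-132812034: acatggaactgggactctgaggctacctgg
Unc13d brighter probe, chr11:115923410-115923469: AATAAAAATAAAacattatccactgccctc
Unc13d dimmer probe, chr11:115936930-115936989: agggtataaggtttttctagataagaggat
Stxbp2 brighter probe, chr8:3642653-3642712: tgacctcaagacactggatcagaagctgga
Stxbp2 dimmer probe, chr8:3643399-3643458: cagcaaacttggggctggtgagatggctca
Gzmk brighter probe, chr13:113970774-113971087: atgtcttcagagtgtttccatactgaaatt
Gzmk dimmer probe, chr13:113961816-113961875: tgtttgtctgcatggatgtcaagaaacatc
The Sytl1 probes gave the same picture, with -2.41 ± 0.21 for TFH against naïve cells (adjusted p = 0.0013, in the fit over all probes) and 2.98 ± 0.21 for TFR against TFH cells (adjusted p = 0.0020) at the dimmer probe. The dimmer Unc13d probe, which lies elsewhere in the gene and lacks AATAAA, did not show the follicular rise (0.06 ± 0.13 and 0.13 ± 0.13, adjusted p = 0.741 and 0.466). The dimmer Stxbp2 probe fell by 0.41 ± 0.10 in TFH (adjusted p = 0.0255) and by 0.34 ± 0.10 in TFR cells (adjusted p = 0.0487), opposite in sign to the brighter probe, and its last 15 bases occurred in 4 other probes of the array. The dimmer Gzmk probe was well above background on 4 arrays and read 627 RU in TFH cells at d25 against 20 to 98 RU on the other 7 arrays. Its fitted TFR against TFH difference of -3.24 ± 0.71 (adjusted p = 0.0369) includes TFR values of 20 and 31 RU, at or near the floor. The d25 TFH array also had the highest summed level of 5 B cell markers (11974 RU, against 1584 to 8553 RU on the other arrays), with Pax5 at 20 RU throughout. The B220- gate given above is meant to leave out B cells, and their part in this value was not tested.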

How the data were processed

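The 8 arrays were Agilent one-color arrays on which each of 39429 probes is printed 4 times. Per the labels, signals were extracted with Agilent Feature Extraction 10.7.3.1. From the deposited spot intensity values (gProcessedSignal), spots that were flagged, outside 1.42 interquartile ranges or above a pixel variation of 0.5 were left out. The rest were averaged on the log2 scale, quantile-normalized and scaled to a 75th percentile of 1500 (floor 20), as the study's methods describe. The table of normalized intensity values deposited by the authors served as a check (r at least 0.999 per array) and as an alternative. Per the file headers, probe coordinates are on mm9. Of each gene the brightest probe was tested on the log2 scale with limma 3.58.1 (R 4.3.3, terms cell type and day, 3 residual degrees of freedom, Benjamini-Hochberg over 15764 genes measured well above background at both days in some cell type). The steps were tested on simulated data. Alternatives covered scaling, background, spots, probes, filters, slide, day, the variance prior and each array left out. Members and lists were chosen with earlier results of these data known. Named genes were the members, per list and comparison up to 3 called genes with the largest rise and fall measured on both sides, and the closest neighbors by correlation. A gene that this rule names is not reported here. The number of arrays limits the precision. Promoters came from RefSeq (GRCm38.p6), which held windows for 8 of 10 genes. The arrays of a cell type came from pools of different days. The p-values thus measure how far differences between cell types varied between those pools and days, beyond the change shared by all cell types.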

Additional observations from a re-analysis of the deposited data

Results flagged for a closer look

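The change from Treg to TFR cells differed from that from naïve CD4 T to TFH cells, by a test of the difference itself, for Prf1 (1.04 ± 0.14 on the log2 scale, adjusted p = 0.0179), Stx11 (-2.60 ± 0.30, adjusted p = 0.0138), Rab27a (-1.12 ± 0.16, adjusted p = 0.0219) and Sytl1 (1.95 ± 0.14, adjusted p = 0.0055). The sign of each difference was the same at d12 and at d25. Prf1 and Stx11 were called between Treg and naïve CD4 T cells but not between TFR and TFH cells. For these genes the gap thus lay mainly between the non-follicular cells. With 2 arrays per cell type, no cell type could be searched for outlying arrays.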

How the results depend on the processing

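Of 574 member differences recomputed with all 8 arrays, no called one changed its direction, 19 lost their call and 8 gained one. The 574 include differences that the main fit did not call, which cannot lose a call. Of 480 further values recomputed with 1 array left out, no called one changed its direction, but calls were lost there too. With every gene tested and no filter on dim probes, the called members numbered 2 for TFR versus Treg cells and 2 for Treg versus naïve CD4 T cells. For the difference between the follicular changes 1 was called. Of all 29924 genes in that setting, 3870, 702 and 418 were called in this order. With slide as a block in place of day, 1 member, Prf1, was called for Treg versus naïve CD4 T cells. Over all 15764 tested genes, 523 were called there, against 1557 in the main fit. For d25 versus d12, 1 gene, Gzmb, was called under normexp background correction and 1 under an intensity trend with robust variances. Over all 15764 tested genes these settings called 855 and 1250, against 11 in the main fit. When each array was left out in turn, called genes ranged from 4 to 6 for TFH versus naïve CD4 T cells, 2 to 4 for TFR versus Treg cells, 2 to 3 for TFR versus TFH cells, 1 to 5 for Treg versus naïve CD4 T cells, 1 to 4 for the difference between the follicular changes and 0 to 0 for the days. The lone array of such a cell type is assumed to vary like the others. The cause of these losses was not tested. Prf1, Stx11, Rab27a and Sytl1 in TFH versus naïve CD4 T cells, Prf1 and Stx11 in TFR versus Treg cells, and Gzmb and Sytl1 in TFR versus TFH cells kept their calls in every alternative run. Gzmb was not well above background on the d25 arrays of Foxp3- cells, so its d25 folds there are bounds. For the same reason, the alternative limited to genes well above background on all arrays did not test Gzmb.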
